A study of Sus scrofa with 8 samples.

Results

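The genes of antigen presentation were read in the endometrium of pregnant pigs: the swine leukocyte antigen (SLA) class I heavy chains SLA-1, SLA-2 and SLA-3, their light chain B2M, the peptide transporter subunits TAP1 and TAP2, the class II chains SLA-DRA, SLA-DQA1 and SLA-DQB1, and the class II invariant chain CD74. A member was every probeset (a group of short probes designed against 1 transcript sequence) that carried 1 of these symbols in the annotation of the array or in the study's supplementary gene list. There were 20 member probesets among the 23999 tested, 18 named by the annotation and 2 by the supplementary list alone. The 2 named by that list alone had been put there because of this same breed contrast, so they are described without a test. A further 5 class I probesets carried several symbols, and SLA-1 appeared only among these, so they are described apart. Of the 10 genes, 8 had a probeset of their own, and SLA-1 and TAP2 were not analysed here as single genes.

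Endometrium was collected on day 12 of gestation from 4 Meishan gilts (a prolific Chinese breed) and 4 Yorkshire gilts (a Western commercial breed with smaller litters). All gilts had been bred naturally, at the second or the third estrus, to boars of their own breed, and all carried conceptuses at the filamentous stage. Each gilt gave 1 Affymetrix Porcine Genome array, so that replicates within a breed were different animals. The arrays read whole tissue, in which fewer cells of a type and less RNA per cell cannot be told apart. Every value below is a linear array signal, scaled by the authors' software and then centred so that all 8 arrays share 1 median. A log2 difference is Meishan minus Yorkshire with its standard error (SE), and means are geometric means of 4 gilts.

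Markers of the labelled tissue gave signal, with 6 of 6 measured endometrial, 6 of 6 epithelial and 4 of 4 stromal marker genes at 64 or more in all gilts. That level was also met by 59% of all probesets, 5 of 5 endothelial and 3 of 3 smooth muscle markers. It therefore cannot tell endometrium from other uterine tissue. Between 16932 and 17840 probesets per Meishan array and between 16653 and 16981 per Yorkshire array reached 64.

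Class I molecules sit on the surface of nearly all nucleated cells as a heavy chain paired with B2M, and show peptides of cytosolic proteins to T and natural killer cells. The peptides are pumped into the endoplasmic reticulum by the transporter made of TAP1 and TAP2. Class II molecules are alpha and beta chain pairs, held by CD74 until they reach endosomes, and are displayed mainly by macrophages, dendritic cells and B cells, with interferon gamma as a known inducer. In the pig RefSeq annotation (Sscrofa11.1), LOC100513601 (which has SLA-1 among its older names), SLA-2 and SLA-3 lie side by side, SLA-DQA1 lies beside SLA-DQB1, TAP1 lies between PSMB8 and PSMB9, and 2 neighbouring genes both carry the symbol B2M.

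None of the annotated members passed the breed test. At an adjusted p under 0.1 (limma with Benjamini-Hochberg adjustment over all 23999 probesets), 0 of 18 were called, where 0.908% of all probesets were. At an unadjusted p under 0.05 the count was 3 of 18, or 16.7%, against 14.8% of all probesets, and the breeds did not overlap at 2 of 18, or 11.1%, against 10.1%. These shares lay near the background. The 3 were a pair of bright B2M probesets, higher in Meishan (7.79% of all probesets passed in that direction), and the brightest TAP1 probeset, lower in Meishan (6.96%). Both non-overlapping members were that B2M pair, with Meishan above (5.01% of all probesets, and 5.09% had Yorkshire above). The mean was higher in Meishan at 7 of the 18 (38.9%, against 51.7% of all probesets) and lower at 11, with a median log2 difference of -0.09 against 0.02 over all probesets. Over all probesets this share varied with brightness. It was 53.4% at mean signals under 1000, 39.9% from 1000 to 10000 and 85.3% at 10000 or more. Signal was seen widely, since 16 of the 18 (88.9%) had at least 64 in all 8 gilts, where 59% of all probesets did.

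**Figure D1:**
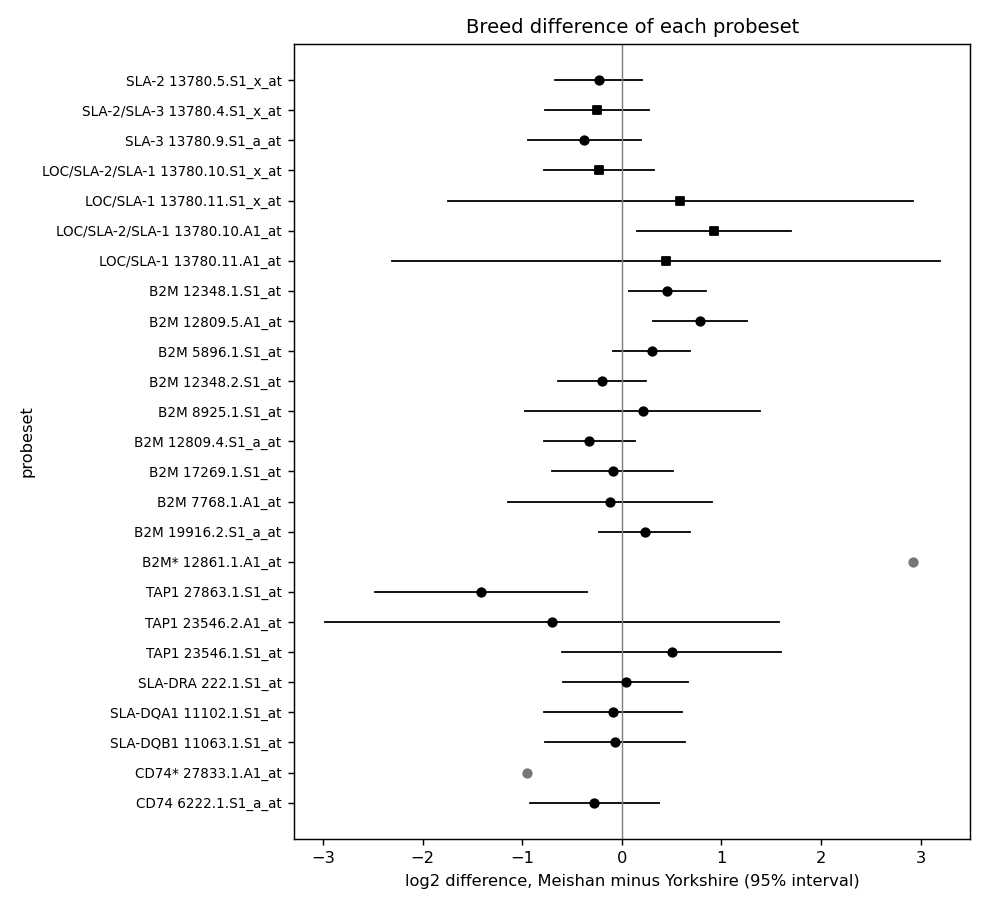
Log2 difference of Meishan minus Yorkshire (horizontal axis) for each member probeset (circles) and each class I probeset with several symbols (squares, LOC stands for LOC100513601), with lines for 95% intervals of the limma fit. Grey circles with an asterisk were named by the supplementary list alone and have no interval. The intervals of 3 annotated member probesets, 2 of B2M and 1 of TAP1, and of the class I probeset Ssc.13780.10.A1_at do not include 0.

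The heavy chain genes SLA-2 and SLA-3 gave strong signals in every gilt and did not differ between breeds beyond the spread of the gilts. The signal of SLA-2 (Ssc.13780.5.S1_x_at) was 11690, 15333, 12365 and 16384 in the Meishan gilts, against 15123, 15780, 19420 and 14998 in the Yorkshire gilts. The breeds overlapped, with means of 13804 in Meishan and 16237 in Yorkshire and a log2 difference of -0.23 (SE 0.19, limma adjusted p = 0.616). SLA-3 (Ssc.13780.9.S1_a_at) stood at 11306, 11224, 7789 and 11008 in Meishan, against 14113, 13625, 17344 and 9241 in Yorkshire. Here 3 Yorkshire gilts lay above every Meishan gilt and Yorkshire gilt 4 lay below 3 of them. The log2 difference of SLA-3 was -0.38 (SE 0.24, adjusted p = 0.521). The limma 95% intervals of -0.67 to 0.21 for SLA-2 and -0.94 to 0.19 for SLA-3 still include a difference of over 1.5-fold for each, with Yorkshire the higher.

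The 2 bright class I probesets that the annotation assigned to several genes gave like values. Ssc.13780.4.S1_x_at (SLA-2 and SLA-3) had a mean of 13020 in Meishan and 15475 in Yorkshire, a log2 difference of -0.25 (SE 0.23, limma adjusted p = 0.655). Ssc.13780.10.S1_x_at (LOC100513601, SLA-2 and SLA-1) had a mean of 9869 in Meishan and 11560 in Yorkshire, a difference of -0.23 (SE 0.24, adjusted p = 0.705). The deviations of gilts from their breed means followed those of SLA-2 with Pearson r = 0.95 for the first and 0.86 for the second over 8 gilts. The suffix _x_at marks probes that may bind other sequences too, and the SLA-2 probeset has it as well. These probesets and that of SLA-2 are therefore not separate measurements of separate genes.

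A further class I probeset with several symbols, Ssc.13780.11.S1_x_at (LOC100513601 and SLA-1), split the gilts instead of the breeds. Its signal was 334, 552, 6724 and 5140 in the Meishan gilts, against 1101, 2188, 764 and 678 in the Yorkshire gilts. Meishan gilts 3 and 4 stood above every Yorkshire gilt, and Meishan gilts 1 and 2 stood below every Yorkshire gilt. The range was 20.1-fold in Meishan and 3.23-fold in Yorkshire, and only 0.141% of the 14149 probesets with a signal of at least 64 on every array had a larger spread within breeds. With that spread the log2 difference of 0.59 had an interval of -1.75 to 2.92 (SE 1.02, adjusted p = 0.832), and without Meishan gilt 3 it was -0.11. The SLA-2 probeset did not show this split, since its 2 lowest Meishan signals were in gilts 1 and 3.

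The other pair of these probesets was dim. Ssc.13780.10.A1_at (LOC100513601, SLA-2 and SLA-1) was at 88.8, 236, 197 and 113 in Meishan, against 74.5, 98.6, 69.1 and 70.3 in Yorkshire. Only Meishan gilt 1 lay within the Yorkshire range, and the log2 difference of 0.93 (SE 0.34) did not pass (limma unadjusted p = 0.0245, adjusted p = 0.263). Ssc.13780.11.A1_at (LOC100513601 and SLA-1) stayed below 64 in all 8 gilts. So the class I probesets with several symbols pointed both ways, 3 higher and 2 lower in Meishan, where 51.7% of all probesets were higher. Of the 5, 0 were called (0.908% of all probesets) and 1 had an unadjusted p under 0.05 (14.8% of all probesets). SLA genes are known to be highly polymorphic, and a base difference under a probe can change its signal. The alleles of these gilts are not given in the sources used here, and the part of allele differences in any of these values was not tested.

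**Figure D2:**
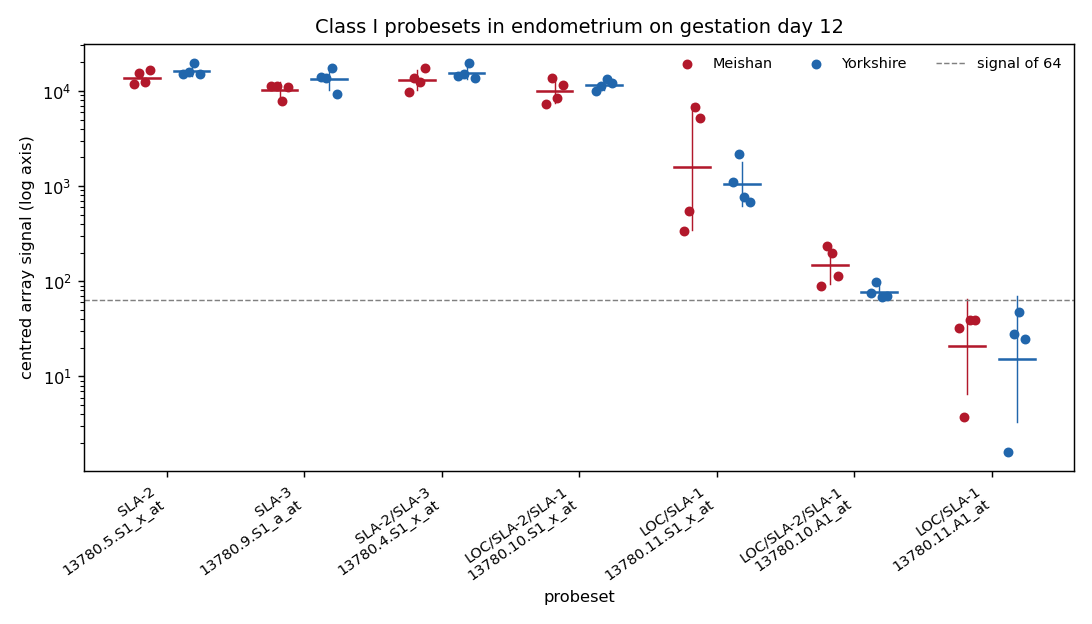
Signal of the 7 class I probesets in each gilt (vertical log axis), Meishan in red to the left of Yorkshire in blue, with LOC for LOC100513601. Short horizontal lines are geometric means, vertical lines are 1 SD of log2 signals on each side (n = 4 each), and the dashed line is a signal of 64. At Ssc.13780.11.S1_x_at the Meishan gilts fall into a pair at 334 and 552 and a pair at 5140 and 6724, on both sides of the Yorkshire gilts.

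B2M, the light chain that every class I heavy chain needs to reach the surface, had 9 probesets annotated to it. These did not agree on a breed difference: 5 means were higher and 4 lower in Meishan. Whether all 9 read the same transcript was not tested. At Ssc.12809.5.A1_at the signal was 28010, 40582, 33145 and 26755 in Meishan, against 17698, 15634, 21704 and 19117 in Yorkshire. Every Meishan gilt lay above every Yorkshire gilt, the mean was 1.72-fold higher in Meishan, and the log2 difference was 0.78 (SE 0.20). It missed the threshold after adjustment (limma unadjusted p = 0.00484, adjusted p = 0.158).

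A second bright probeset, Ssc.12348.1.S1_at, read 28968, 33346, 29397 and 29744 in Meishan, against 21228, 19133, 25659 and 22985 in Yorkshire. The breeds again did not overlap, and the log2 difference of 0.45 (SE 0.17, limma unadjusted p = 0.0263, adjusted p = 0.269) did not pass. Both values depend on how the brightest probesets are scaled. Of the 211 probesets with a mean signal of at least 10000, 180 (85.3%) were higher in Meishan, with a median log2 difference of 0.29. After quantile normalization, which gives all arrays the same distribution, that median was 0.02, the difference of Ssc.12348.1.S1_at was 0.01 and that of Ssc.12809.5.A1_at was 0.34. The 16 probesets of the hybridization spike-ins, control RNAs meant to be added alike to every array, averaged between 11.4 and 12.18 (log2) on Meishan arrays, against between 10.32 and 10.84 on Yorkshire arrays, and their part in these differences was not tested. Members and class I probesets with several symbols made up 9 of those 211, of which 4 were higher and 5 lower in Meishan.

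The probeset Ssc.12348.2.S1_at lay on the other side of 0. Its signal was 10742, 13962, 12052 and 9622 in Meishan, against 12250, 11843, 15809 and 13302 in Yorkshire, with overlap and a log2 difference of -0.20 (SE 0.19, limma adjusted p = 0.671). Probesets annotated to 1 gene are read on the same array. Their ratio within a gilt therefore does not depend on scaling an array by a constant. It does depend on scaling that varies with brightness. The log2 ratio of Ssc.12348.1.S1_at over Ssc.12348.2.S1_at was 1.43, 1.26, 1.29 and 1.63 in the Meishan gilts, against 0.79, 0.69, 0.70 and 0.79 in the Yorkshire gilts. That of Ssc.12809.5.A1_at over Ssc.12348.2.S1_at was 1.38, 1.54, 1.46 and 1.48 in Meishan, against 0.53, 0.40, 0.46 and 0.52 in Yorkshire, a difference of 0.99. Neither ratio overlapped between the breeds, and the difference of the first was 0.66. After quantile normalization, an alternative chosen after seeing the data, the differences were 0.30 for the first, whose breeds then overlapped, and 0.64 for the second, whose breeds did not.

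Of the 36 pairs of annotated B2M probesets, the ratio did not overlap between breeds for 9. How often the ratios of other probeset pairs fail to overlap was not measured, so this count has no background share beside it. A ratio without overlap always reaches the smallest two-sided p that 70 assignments of 8 gilts allow (exact permutation test, p = 0.0286). For these 9 pairs that p restates the lack of overlap. After Benjamini-Hochberg adjustment over all 39 pairs of B2M and TAP1 probesets, the lowest value was 0.124 (exact permutation test), so 0 pairs passed at 0.1. At least 12 pairs at the smallest p would have been needed to pass. Ssc.12809.5.A1_at was in 6 of the 9 pairs, which therefore are not 9 separate results. After quantile normalization the ratio did not overlap for 3 of the 39 pairs, 2 of them among these 9, and the lowest adjusted p was 0.371 (exact permutation test).

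The remaining B2M probesets did not separate the breeds. Ssc.5896.1.S1_at, which the supplementary list gives to RPS15A, averaged 17989 in Meishan gilts and 14631 in Yorkshire gilts (a difference of 0.30 on the log2 scale, SE 0.17, limma adjusted p = 0.453). Ssc.8925.1.S1_at read 14632, 16648, 6179 and 13197 in Meishan, against 14776, 15296, 12648 and 3901 in Yorkshire. Meishan gilt 3 and Yorkshire gilt 4 were low at this probeset alone among the 5 brightest of B2M, since Ssc.12348.1.S1_at read 29397 and 22985 in these same gilts. Ssc.12809.4.S1_a_at had means of 939 in Meishan and 1178 in Yorkshire. This probeset and the dimmer Ssc.17269.1.S1_at, Ssc.7768.1.A1_at and Ssc.19916.2.S1_a_at had log2 differences between -0.33 and 0.23 (limma adjusted p from 0.488 to 0.927). Deviations from the breed means followed those of Ssc.12348.1.S1_at with r = 0.84 at Ssc.12809.5.A1_at and 0.81 at Ssc.12348.2.S1_at over 8 gilts. The values were 0.40 at Ssc.5896.1.S1_at and 0.14 at Ssc.7768.1.A1_at. They were -0.04 at Ssc.19916.2.S1_a_at, -0.115 at Ssc.8925.1.S1_at, -0.37 at Ssc.12809.4.S1_a_at and -0.41 at Ssc.17269.1.S1_at.

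The probeset that only the supplementary list names B2M, Ssc.12861.1.A1_at, was dim in both breeds. Its signal was 64.6, 102, 129 and 84.1 in Meishan, against 55.3, 7.93, 3.26 and 15.2 in Yorkshire, so it reached 64 in 4 Meishan gilts and in 0 Yorkshire gilts. As it was chosen on this contrast, no test is given.

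**Figure D3:**
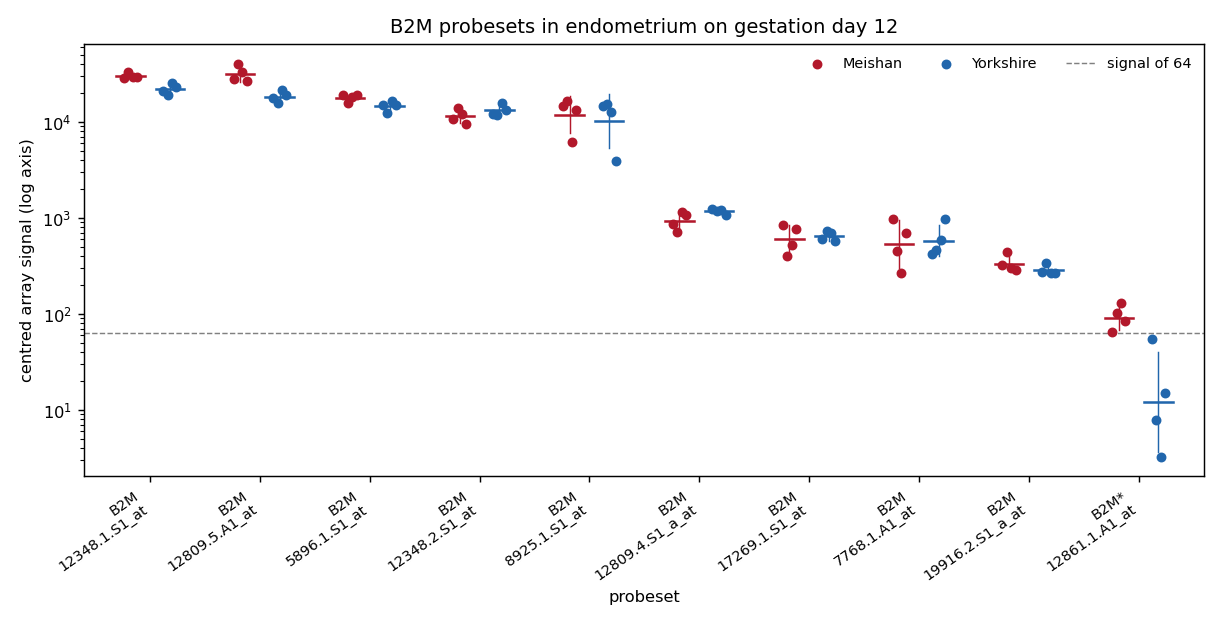
Signal of the 10 probesets named B2M in each gilt (vertical log axis), Meishan in red to the left of Yorkshire in blue, and the asterisk marks the probeset named by the supplementary list alone. Horizontal lines are geometric means, vertical lines are 1 SD of log2 signals on each side (n = 4 each), and the dashed line is a signal of 64. Among the annotated probesets the breeds do not overlap only at Ssc.12348.1.S1_at and Ssc.12809.5.A1_at.

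TAP1, the ATP-binding transporter subunit that moves peptides to class I molecules, had the largest log2 difference among the annotated members. Its brightest probeset (Ssc.27863.1.S1_at) was at 745, 1189, 412 and 373 in the Meishan gilts, against 827, 2024, 2289 and 1783 in the Yorkshire gilts. Yorkshire gilts 2, 3 and 4 lay above every Meishan gilt, and Yorkshire gilt 1 lay within the Meishan range. The mean was 608 in Meishan and 1617 in Yorkshire, 2.66-fold higher in Yorkshire, with a log2 difference of -1.41 (SE 0.46, interval -2.48 to -0.35). This did not pass over all probesets (limma unadjusted p = 0.0157, adjusted p = 0.224). Leaving out any 1 gilt kept the difference between -1.73 and -1.18, and quantile normalization gave -1.32. The other TAP1 probesets, Ssc.23546.2.A1_at and Ssc.23546.1.S1_at, had geometric means of 17.5 and 16.9 in Meishan, against 28.4 and 12.0 in Yorkshire, and reached 64 only in Meishan gilt 4 at Ssc.23546.2.A1_at (100).

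Genes near TAP1 or known to act on it lay on both sides of 0. PSMB8, the immunoproteasome subunit encoded beside TAP1, averaged 1482 in Meishan gilts and 1095 in Yorkshire gilts (a difference of 0.44 on the log2 scale, SE 0.27, limma adjusted p = 0.490). IRF1, a transcription factor known in human cells to act on the TAP1 promoter, read 1015, 2262, 999 and 1147 in Meishan, against 1285, 2004, 2391 and 1296 in Yorkshire. Its log2 difference was -0.40 (SE 0.34, adjusted p = 0.633), and in both breeds its highest gilt was also the highest for TAP1, gilt 2 in Meishan and gilt 3 in Yorkshire. IFNG, interferon gamma itself, which elongating pig conceptuses are known to secrete, was at 14.2, 904, 304 and 114 in Meishan, against 4604, 221, 6286 and 33.5 in Yorkshire. Of the 2 Yorkshire gilts with high IFNG, gilt 1 had the lowest TAP1 signal of its breed and gilt 3 the highest. The 5 measured trophoblast markers, IFNG among them, summed to 353 to 1467 in Meishan and to 312 to 7162 in Yorkshire. IFNG gave 6286 of the 7162 in Yorkshire gilt 3 and 4604 of the 6447.5 in Yorkshire gilt 1, so the sum is not separate from IFNG. Only 1 of the 5 markers had at least 64 in all gilts. The part of conceptus tissue in the TAP1 values was not tested.

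The class II chains showed no breed difference beyond their errors, and most of their variation ran among gilts. SLA-DRA (Ssc.222.1.S1_at), the alpha chain of the DR molecule, was at 2391, 5191, 3048 and 2702 in Meishan, against 2716, 2844, 3126 and 3797 in Yorkshire. The mean was 3180 in Meishan and 3095 in Yorkshire, with a log2 difference of 0.04 (SE 0.27, interval -0.59 to 0.67, limma adjusted p = 0.962). Meishan gilt 2 was the highest of all 8 and Meishan gilt 1 the lowest.

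The DQ chains had the same highest gilt. SLA-DQA1 (Ssc.11102.1.S1_at), the DQ alpha chain, was at 2321, 4466, 3085 and 2411 in Meishan, against 2736, 2225, 4258 and 3849 in Yorkshire (log2 difference -0.09, SE 0.30, limma adjusted p = 0.914). SLA-DQB1 (Ssc.11063.1.S1_at), the DQ beta chain, was at 2391, 4803, 2489 and 1866 in Meishan, against 2528, 2519, 3524 and 2854 in Yorkshire (difference -0.07, SE 0.31, adjusted p = 0.942). The breeds overlapped at both. Without Meishan gilt 2 the log2 differences were -0.20 for SLA-DRA, -0.29 for SLA-DQA1 and -0.34 for SLA-DQB1, so the sign for SLA-DRA turned without that gilt. It also turned, at -0.02 and -0.0014, without Yorkshire gilt 1 or 2.

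CD74, the invariant chain that guards the class II groove, was read by 1 annotated probeset. Ssc.6222.1.S1_a_at was at 1292, 2412, 1689 and 1180 in Meishan, against 1615, 1769, 1778 and 2647 in Yorkshire, with overlap and a log2 difference of -0.28 (SE 0.28, limma adjusted p = 0.692). Deviations of CD74 from the breed means followed those of SLA-DRA with r = 0.93 over 8 gilts, and SLA-DQB1 and SLA-DQA1 did so with r = 0.85 and 0.83. A second probeset, Ssc.27833.1.A1_at, is CD74 in the supplementary list but MTMR10, a myotubularin-related protein, in the annotation. It read 1338, 1443, 1587 and 1176 in Meishan, against 3087, 2989, 2888 and 1876 in Yorkshire, without overlap. Its deviations followed SLA-DRA with r = -0.17, and since it was listed for this contrast no test is given.

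**Figure D4:**
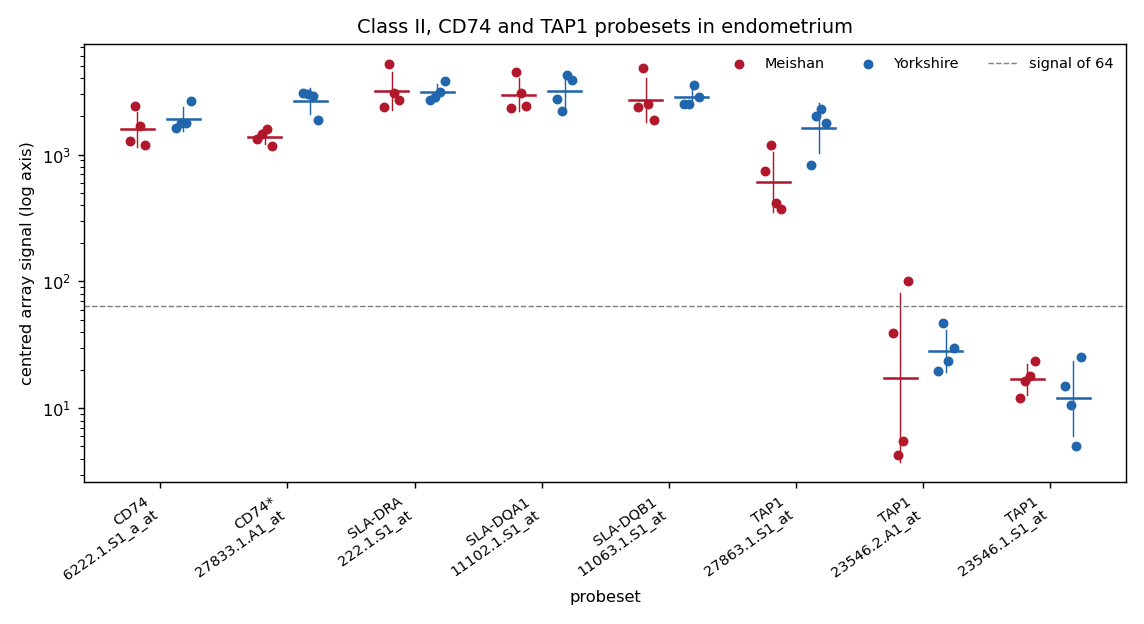
Signal of the CD74, class II and TAP1 probesets in each gilt (vertical log axis), Meishan in red to the left of Yorkshire in blue, with an asterisk on the probeset named by the supplementary list alone. Horizontal lines are geometric means, vertical lines are 1 SD of log2 signals on each side (n = 4 each), and the dashed line is a signal of 64. The breeds overlap at the 3 class II probesets, and 3 of 4 Yorkshire gilts lie above all Meishan gilts at Ssc.27863.1.S1_at of TAP1.

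Meishan gilt 2 was the highest of the 8 gilts at SLA-DRA, SLA-DQA1 and SLA-DQB1 and second at CD74. Over all probesets it was the highest gilt at 13.5%, and at 9.53% of those with a signal of at least 64 on every array. Other class II genes were mixed in this. Meishan gilt 2 was the highest at SLA-DMB and at the dimmer of the 2 SLA-DMA probesets, whose products load peptides onto class II, and at the brightest SLA-DRB1 probeset, the DR beta chain. It ranked 3 of 8 at SLA-DOA and 6 of 8 at the brighter SLA-DMA probeset, where Yorkshire gilt 3 was the highest at both. At SLA-DRB1 the outlier was another gilt, with signals of 2532, 4230, 2127 and 2086 in Meishan, against 2544, 653, 2676 and 2532 in Yorkshire. CIITA, the master activator of class II genes, was at 79.7, 283, 85.5 and 106 in Meishan, against 170, 233, 241 and 92.7 in Yorkshire. Meishan gilt 2 led there too. Yorkshire gilt 4 had the lowest CIITA signal of its breed, but the highest of its breed for SLA-DRA (3797) and CD74 (2647).

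Markers of antigen-presenting cells were mixed in this gilt. Of 13 macrophage and dendritic cell markers, 8 were measured, 7 of them at 64 or more in all gilts, and 0 were called (0 also at an unadjusted p under 0.05, limma). Their summed signal lay between 4145 and 5678 in Meishan gilts and between 3998 and 7082 in Yorkshire gilts, with Meishan gilt 2 the highest of its breed and Yorkshire gilt 3 the highest of all. Among the 8, Meishan gilt 2 was the highest Meishan gilt at 5 and the lowest at 2. AIF1, a macrophage protein, was at 802 in that gilt and from 242 to 663 in the other gilts, whereas CD163, a scavenger receptor of macrophages, was at 304 in that gilt and from 403 to 502 in the other Meishan gilts. Of 6 B cell markers 2 were measured. CD79B, a subunit of the B cell receptor, was higher in Meishan (80.4 for Meishan gilts and 34.3 for Yorkshire gilts, limma adjusted p = 0.0920). In that direction 0.404% of all probesets were called. Its signal was dim, from 64.4 to 114 in Meishan gilts and from 28.0 to 41.7, below 64, in Yorkshire gilts. The other, BLNK, a B cell adaptor protein, lay on the opposite side, with 462 for Meishan gilts and 711 for Yorkshire gilts (-0.62 on the log2 scale, SE 0.30, limma adjusted p = 0.387). The 7 measured T cell markers summed to 505 to 963 in Meishan and 625 to 844 in Yorkshire, with Meishan gilt 2 the highest of all. Only 1 of these 7 had at least 64 in all gilts. The part of cell numbers in the class II values was not tested.

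**Figure D5:**
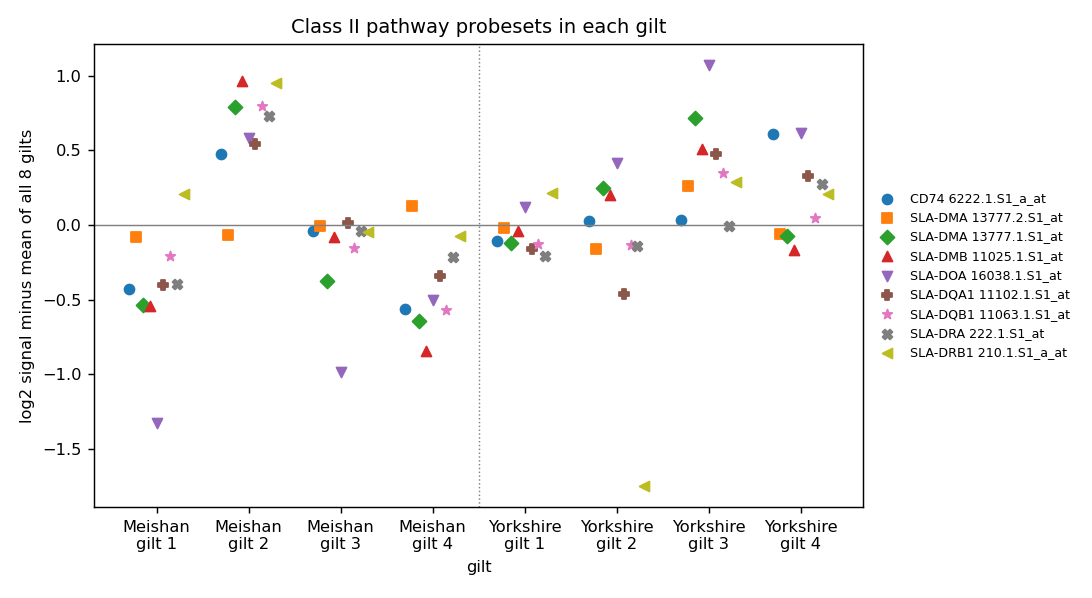
Log2 signal of 9 class II pathway probesets minus the mean of all 8 gilts (vertical axis) in each gilt, with 1 marker shape per probeset and the Meishan gilts to the left of the dotted line. Meishan gilt 2 is above 0 at 8 of the 9 probesets, and the lowest point of Yorkshire gilt 2 is SLA-DRB1.

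Genes whose deviations from the breed means were most like those of a member were taken from 7028 annotated probesets with a signal of at least 64 on every array. For SLA-DRA these were LPCAT2, a lysophospholipid acyltransferase, RABEP2, an endosomal protein, SPI1, a transcription factor of myeloid and B cells, SAMD4A and IFI44L (r from 0.91 to 0.95 over 8 gilts). TAP1 was matched by ZBP1, a sensor of nucleic acids, ZC3H11A, IFIT1, an antiviral RNA-binding protein, XAF1 and RUFY3 (r from 0.95 to 0.97). B2M at Ssc.12348.1.S1_at was matched by CST6, a cystatin, MAP7D1, CAMK2G, DDX6 and MYO5A (r from 0.97 to 0.99), and SLA-2 by MMS19, GIT1, LDB1, ZDHHC1 and TFEB (r from 0.94 to 0.97). With 8 gilts and 7028 candidates, high correlations are usual. The points share their arrays, and these values are a description.

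The wider pathway was read from lists of genes at their brightest annotated probeset, and 1 gene passed the test. LGMN, the asparagine endopeptidase legumain that can cut the invariant chain and antigens in endosomes, was lower in Meishan, a direction in which 0.504% of all probesets were called. Its signal was 1899, 1595, 2162 and 2205 in Meishan, against 4021, 3791, 4179 and 3734 in Yorkshire, without overlap. The log2 difference was -1.01 (SE 0.17, limma adjusted p = 0.0712). With 1 gilt left out the call was lost whichever gilt it was, with adjusted p from 0.112 to 0.164 and differences from -1.07 to -0.91. Of the 8 endosomal processing genes measured, 7 had lower means in Meishan, by log2 differences from -1.01 to -0.03, and the list median was -0.24. Over all probesets 51.7% were higher in Meishan, and 39.9% of those with a mean signal of 1000 to 10000. CTSD and CST3, a lysosomal protease and a protease inhibitor, had differences of -0.45 and -0.39 (limma adjusted p = 0.343 and 0.394).

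Other class I and class I-like genes gave 0 calls of 6 measured, 5 with higher means in Meishan and 1 with a lower mean. Of all probesets 51.7% were higher, with 53.4% at mean signals under 1000 and 39.9% from 1000 to 10000. CD1.1, which presents lipids, was at 261, 297, 288 and 218 in Meishan, against 160, 165, 138 and 178 in Yorkshire, without overlap (log2 difference 0.73, SE 0.18, limma adjusted p = 0.144). SLA-8, a class Ib heavy chain, had means of 1481 in Meishan and 2099 in Yorkshire (difference -0.50, adjusted p = 0.398), and AZGP1 a difference of 0.47 (adjusted p = 0.471). The peptide loading list had 0 calls of 6, with 3 means higher and 3 lower. PDIA3, the disulfide isomerase of the loading complex, had means of 1482 in Meishan and 907 in Yorkshire, without overlap (0.71, SE 0.22, adjusted p = 0.209), and SEC61A1 and the chaperone CANX had differences of 0.40 and -0.22.

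The 5 immunoproteasome and activator genes measured all had means that were higher in Meishan. Over all probesets 51.7% were higher, with 53.4% at mean signals under 1000 and 39.9% from 1000 to 10000. The log2 differences of the 5 genes ran from 0.01 to 0.46, with a median of 0.33 and 0 calls. Besides PSMB8, these were led by the activator subunits PSME3 and PSME2, with log2 differences of 0.46 and 0.33 (limma adjusted p = 0.539 and 0.618). The proteasome makes the peptides that TAP1 carries, and a link between these means and the TAP1 difference was not tested.

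Among 4 other class II genes, SLA-DOA, which modulates peptide loading, averaged 71.6 in Meishan gilts and 155 in Yorkshire gilts (a difference of -1.11 on the log2 scale, SE 0.42, limma adjusted p = 0.281), and 0 of 4 were called. Of 8 regulators 0 were called. CREB1 and RFXANK, both parts of the complex that binds class II promoters, had log2 differences of 0.61 and 0.46 (adjusted p = 0.278 and 0.311). Of 10 interferon gamma signalling genes 0 were called, and 7 had a signal of at least 64 in all gilts. In this list 8 means were lower in Meishan. Of all probesets 51.7% were higher there, with 53.4% at mean signals under 1000 and 39.9% from 1000 to 10000. Among the 8 was the receptor kinase JAK2 with a difference of -0.41 (adjusted p = 0.447). Of 7 costimulation genes 0 were called. CD58, the adhesion ligand of CD2, was at 181, 201, 238 and 185 in Meishan, against 393, 342, 348 and 298 in Yorkshire, without overlap (difference -0.78, SE 0.18, adjusted p = 0.127). CD80 had a difference of 0.68 (adjusted p = 0.256) and CD40 one of 0.27 (adjusted p = 0.553). Over all 8 lists, 8 of the 53 measured genes had an unadjusted p under 0.05, or 15.1%, against 14.8% of all probesets, a share near the background. These were CD1.1, SLA-DOA, PDIA3, LGMN, CREB1, RFXANK, CD58 and CD80.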

How the data were processed

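Endometrium of 4 Meishan and 4 Yorkshire gilts was read on 1 array each. The deposited values are linear intensity readings, computed by the authors in GCOS 1.2 (Affymetrix) and scaled to a mean of 500.1 per array once 2% of probesets at each end are trimmed. Detection calls and dates were not used here. Of 24123 probesets, 124 controls were left out. Log2 signals were centred on each array's median and the breeds compared with limma 3.58.1 in R 4.3.3 (prior degrees of freedom 2.09), Benjamini-Hochberg adjustment over 23999 probesets and a threshold of 0.1. The procedure was tested on simulated data. In the annotation 10069 probesets have 1 symbol, 198 have several and 13732 have none. The study's supplementary list of called genes, held here in part (2551 probesets), was read for names only. All member probesets are named, with each pathway list's called genes and its 3 genes of lowest p, and the 5 genes most like 4 of the members. PSMB8, IRF1, IFNG, CIITA and single markers are named beyond this where a member result is set beside them. Gene names without an annotated probeset were not analysed here. The members and lists were chosen with earlier results of these data known. The alternatives tried were no scaling, quantile normalization, a floor of 32, a filter at 64, an intensity trend, an unmoderated fit, a replicate block, a threshold of 0.05, all probesets of a gene, other detection levels and leaving out each gilt. Quantile normalization of the probeset ratios was added after seeing the data. The number of arrays limits the precision.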

Additional observations from a re-analysis of the deposited data

Results flagged for a closer look

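At the 25 probesets described, each breed's 4 gilts were searched for 1 gilt far from the other 3. The measure was its gap to the nearest gilt over the breed's range, both taken on log2 signals. The signals printed below are linear. Of 50 groups, 5 had a gap above Dixon's 95% critical value, and chance flags about 1 in 20 groups. SLA-3 (Ssc.13780.9.S1_a_at) was low in Meishan gilt 3, at 7789 against 11008 to 11306, a gap of 0.928 of the range. B2M at Ssc.8925.1.S1_at was low in Yorkshire gilt 4, at 3901 against 12648 to 15296, a gap of 0.861. At Ssc.19916.2.S1_a_at B2M was high in Yorkshire gilt 2, with 340 against 266 to 277 and a gap of 0.835. The LOC100513601 and SLA-1 probeset Ssc.13780.11.A1_at read 3.73 in Meishan gilt 2 against 32 to 39.5 in the other Meishan gilts, a gap of 0.911, all below 64. Ssc.27833.1.A1_at, named CD74 by the supplementary list alone, was low in Yorkshire gilt 4, at 1876 against 2888 to 3087, a gap of 0.866.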

How the results depend on the processing

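The count of 218 called probesets of 23999 was 863 with a floor of 32, 531 with a filter at 64 in at least 2 arrays, 626 with an intensity trend, 60 at a threshold of 0.05, and 72 to 205 with 1 gilt left out. The count of 0 called members was 2 with the floor (Ssc.12348.1.S1_at, adjusted p = 0.0908, and Ssc.12809.5.A1_at, adjusted p = 0.0788, both B2M) and 1 with the trend (Ssc.12809.5.A1_at, adjusted p = 0.0973), and 0 under each other limma setting. The count of 1 called pathway gene was 3 with the floor and with the filter (LGMN, CD58 and CD1.1), 2 with the trend and with the unmoderated fit (LGMN and CD58), 0 at 0.05 and 0 with any 1 gilt left out. Replicate numbers do not pair the gilts (correlations of deviations -0.0561, 0.0890, 0.00105 and 0.0407). With the replicate block 0 probesets were called (3327 at an unadjusted p under 0.05), with 0 members and 0 pathway genes. The log2 difference of SLA-DQB1 was 0.021 after quantile normalization and that of TAP1 at Ssc.23546.2.A1_at 0.35 with the floor, which left Ssc.23546.1.S1_at without a value. Leaving out 1 gilt gave differences on both sides of 0 for SLA-DRA (-0.20 to 0.18), SLA-DQA1 (-0.29 to 0.051), SLA-DQB1 (-0.34 to 0.11), B2M at Ssc.17269.1.S1_at (-0.25 to 0.10), Ssc.7768.1.A1_at (-0.41 to 0.22) and Ssc.8925.1.S1_at (-0.26 to 0.52), and the LOC100513601 and SLA-1 probesets Ssc.13780.11.S1_x_at (-0.11 to 1.34) and Ssc.13780.11.A1_at (-0.64 to 1.27). The cause of these changes was not tested.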
